A study of Mus musculus with 2 samples.

Results

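Peaks of Zfp217 at repeated sequence were described in CCE, an embryonic stem cell line of the mouse, from the 1 peak list that the authors called on a chromatin immunoprecipitation. The members were chosen by position, as all peaks on contigs with "random" in their name and all peaks that overlap 8 windows on chromosomes 2, 4, 6, 9, 11, 12 and 17. Together they came to 221 of the 18737 peaks of the list (1.18%), with 126 in the windows and 95 on 9 contigs. The windows were picked from where peaks of this same list lay close together or were wide, so the number, width and closeness of peaks in them are descriptions and carry no test.

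The study has 1 library from untreated CCE cells precipitated with a Zfp217 antibody and 1 input library of the same untreated line. Cells were grown without feeders in serum and leukemia inhibitory factor, and both libraries come from this single line. The list holds positions only, with no height, score or read count, so that depth is unknown, no value of the input was analysed here, and markers of the cell type could not be checked. All positions are in the build mm9 and are counted from 1.

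Tandem repeats are stretches of DNA in which one unit follows another many times. Satellite DNA beside the centromeres and the genes for ribosomal RNA are the best known cases in the mouse, and the assembled genome carries only some of their copies. Contigs named "random" hold sequence that was assigned to a chromosome without a place on it, and Un_random holds sequence that was assigned to none. A short read from a repeat can match many places equally well, and whether such reads were kept, and at which copy, is not given in the sources used here. Zfp217 is a zinc finger protein known as a partner of corepressors such as CtBP and CoREST.

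Peaks in the windows were wide and close together, whereas those on the contigs were not. The median width was 500 bp in the windows (middle 50% of peaks 350 to 977 bp) and 282 bp on the contigs (182.5 to 350.5 bp), beside 321 bp over all peaks. Of the window peaks, 31 of 126 (24.6%) were wider than 1 kb, where the share over the whole list was 1.04%. On the contigs this was 1 of 95 (1.05%), close to the whole list. Another peak lay at most 500 bp away for 104 of the 126 window peaks (82.5%), for 19 of the 95 contig peaks and for 22.4% of all peaks. The narrowest width of the list, 157 bp, was held by 4 window peaks (3.17%) and by 7 contig peaks (7.37%), against 3.64% of all peaks. Because the windows were selected from these peaks, only the contig shares say anything beyond the choice of members, and they differed little from the list as a whole except for the narrowest width, where 7 peaks are few. Peaks in 1 locus share their sequence and are not replicates.

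**Figure D1:**
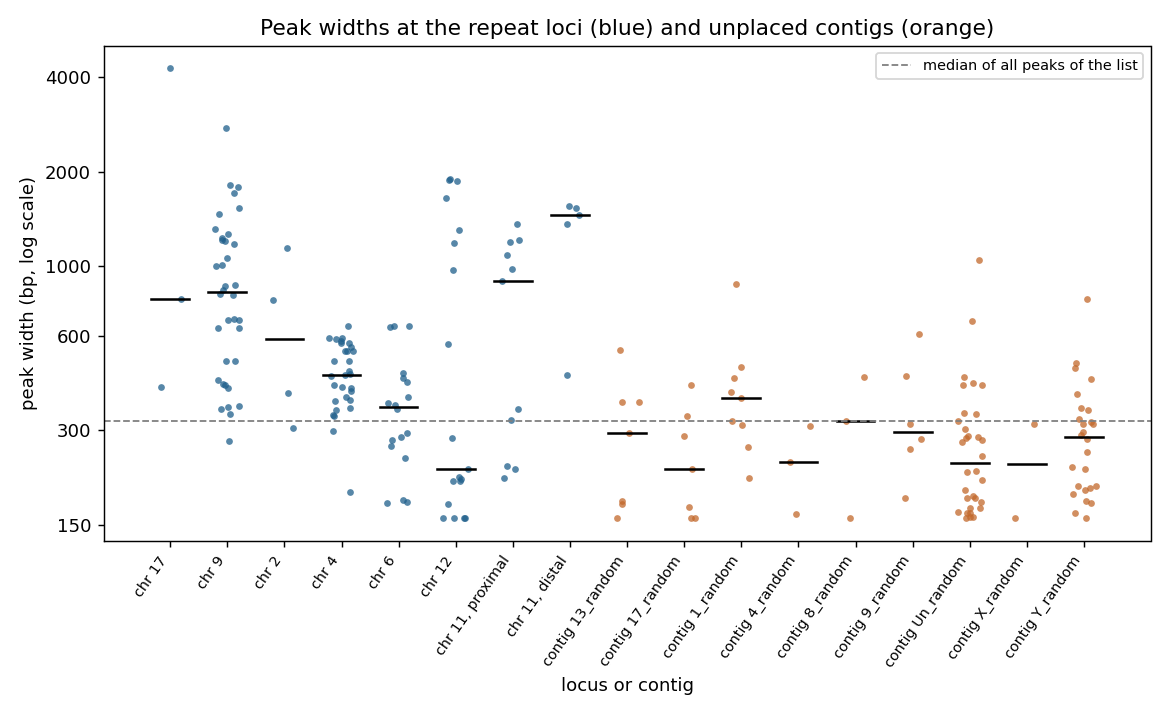
Width of each of the 221 peaks (points, log scale, bp) by locus or contig, with the median of each as a black bar. The dashed line is the median of all peaks, 321 bp, and the distal locus on chromosome 11 has the highest median, 1456 bp.

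The covered share, which is the part of the bases from the first peak start to the last peak end that lies in peaks, set the windows apart from each other. It was 95.5% on chromosome 17, 87.1% on chromosome 9, 51.1% on chromosome 2, 30.8% on chromosome 12, 27.7% on chromosome 4, 19.1% on chromosome 6, and 16.3% and 15.9% at the distal and proximal loci of chromosome 11. For comparison, the same values were computed for the 28 other runs in the list, each made of 8 peaks or more that followed one another within 10 kb, with no member among them. Their covered share ran from 6.03% to 46.8% with a median of 12.8%. Chromosome 9 alone of the 5 windows with at least 8 peaks lay above all 28.

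Chromosome 17 held 3 peaks in the window from 39970000 to 39995000, which was marked as ribosomal DNA-like when it was chosen. Peaks of 4271, 787 and 411 bp followed each other from 39980045, 39984476 and 39985361, with gaps of 160 and 98 bp. The 3 peaks thus formed a nearly unbroken block of 5727 bp. No other peak lay within 952 kb before it or 693 kb after it, where the median gap between neighbouring peaks on chromosomes 1 to 19 and X was 33.8 kb. With 3 peaks, no period could be measured.

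Chromosome 2 held a similarly isolated group of 4 peaks in the window from 98400000 to 98600000. They began at 98502374, 98503856, 98505133 and 98506363 and were 782, 394, 305 and 1143 bp wide, so that the outer peaks were the wide ones. The starts were 1482, 1277 and 1230 bp apart, and the gaps were 700, 883 and 925 bp. The nearest peaks outside lay 4060 kb before and 1370 kb after the group. Its 4 peaks, which spanned 5132 bp, were the only ones in the window of 200 kb, and 3 spacings are too few for a period.

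On chromosome 9, the window from 2990000 to 3050000 lies at the centromeric end, and its first peak began at 2999995, the lowest start of any peak on chromosomes 1 to 19 and X. From there 36 peaks tiled 38344 bp and left 4949 bp uncovered in 35 gaps. The gaps were narrow and alike, from 55 to 409 bp with a median of 129 bp, while widths ran from 278 bp (3005055 to 3005332) to 2758 bp (3035581 to 3038338). Wide peaks lay toward the far end. The last 6 peaks, from 3027442 on, were 1002 to 2758 bp wide with a median of 1747 bp, and each of them passed 1 kb. Of the first 30 peaks, 9 passed 1 kb and the median was 677.5 bp. This division was made after the widths were seen. The next peak beyond the window, 157 bp wide, lay 136 kb away.

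The starts on chromosome 9 showed no common step by the measures used. Spacing from start to start ranged from 440 to 1953 bp with a median of 946 bp. Periodicity was measured by the resultant length, which is 1 when each start falls at the same point of a repeating cycle and 0 when starts spread evenly over it, taken at the best period between 100 bp and the span divided by 4. It reached 0.489 at 194.5 bp, below the values of 0.652 to 0.963 in the 28 other runs. Smaller sets reach higher values by construction, and the other runs held 8 to 16 peaks, so that this order partly follows the number of peaks. The period itself depended on which edge of the peak was used, with 108.7 bp from midpoints and 617.6 bp from ends. At most 4 of the 630 distances between any pair of starts agreed within 10 bp, at 12067 bp, and 6 within 50 bp, at 1306.5 bp. None of the 28 other runs had as many, but they had at most 120 distances each. The commonest distance was 563 bp within 5 bp and 779.5 bp within 25 bp, so it changed with the tolerance.

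**Figure D2:**
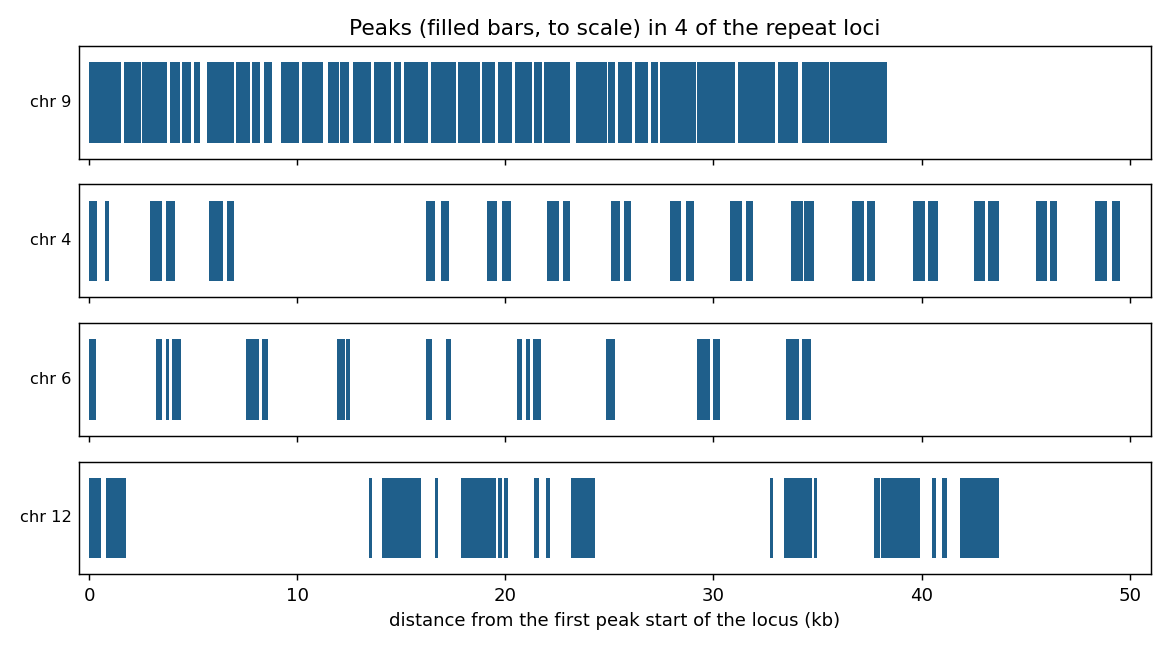
Peaks drawn to scale as filled bars along 4 loci, against the distance from the first peak start in kb. Chromosome 9 is tiled almost without gaps, chromosome 4 shows 15 pairs in 2 blocks, chromosome 6 shows 9 groups and chromosome 12 shows 6 wide peaks among narrow ones.

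The locus on chromosome 4 held pairs of peaks at a regular step. In the window from 88390000 to 88470000, all 30 peaks fell into 15 units of exactly 2 peaks when peaks at most 1000 bp apart were linked. The first 3 units lay from 88402688 to 88409625. A stretch of 9240 bp without a peak followed, and the other 12 units lay from 88418866 to 88452226. Within these blocks, neighbouring units began 2912 bp apart (median, SD 60.3, 13 spacings, range 2819 to 3068). The distance across the empty stretch, 10394 bp from unit start to unit start, came to 3.57 of these steps and so was not a whole number of them.

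Each chromosome 4 unit had the same inner order, with a wider peak followed by a narrower one. The first peak had a mean width of 534.7 bp (SD 71.3, 15 peaks) and the second one of 380.3 bp (SD 78.2). The first was the wider in 15 of 15 units, by 35 to 345 bp. Starts within a unit were 732.7 bp apart (SD 59.7), with a gap of 53 to 387 bp between the peaks. The extremes lay in the first block, where the narrowest peak, 191 bp, ran from 88403447 to 88403637 in unit 1 and the widest, 643 bp, from 88408472 to 88409114 in unit 3. The closest starts, 609 bp apart, belonged to the unit whose second peak began at 88428381. Units covered 563 to 1085 bp each with a mean of 915.1 bp (SD 126), and none of the 30 peaks was wider than 1 kb.

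The regularity also appeared without linking peaks. The best period of the 30 starts was 732.2 bp, with a resultant length of 0.922 that 2 of the 28 other runs reached or passed. It was 733.6 bp from midpoints but 583.9 bp from ends. The period from starts is close to the distance within a unit, but the values do not separate this from a simple fraction of the step between units. Among periods of at least 1000 bp, a setting added after the data were examined, the best was 2840 bp with a resultant length of 0.529, which 27 of the 28 other runs reached or passed. Both peaks of each unit entered this value. From the 15 unit starts alone, the best period of at least 1000 bp was 1465 bp. Of the 435 distances between starts, 5 agreed within 10 bp at 2910 bp and 13 agreed within 50 bp at 2936 bp. In the other runs, at most 3 agreed within 10 bp and at most 5 within 50 bp, with fewer distances to draw on.

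**Figure D3:**
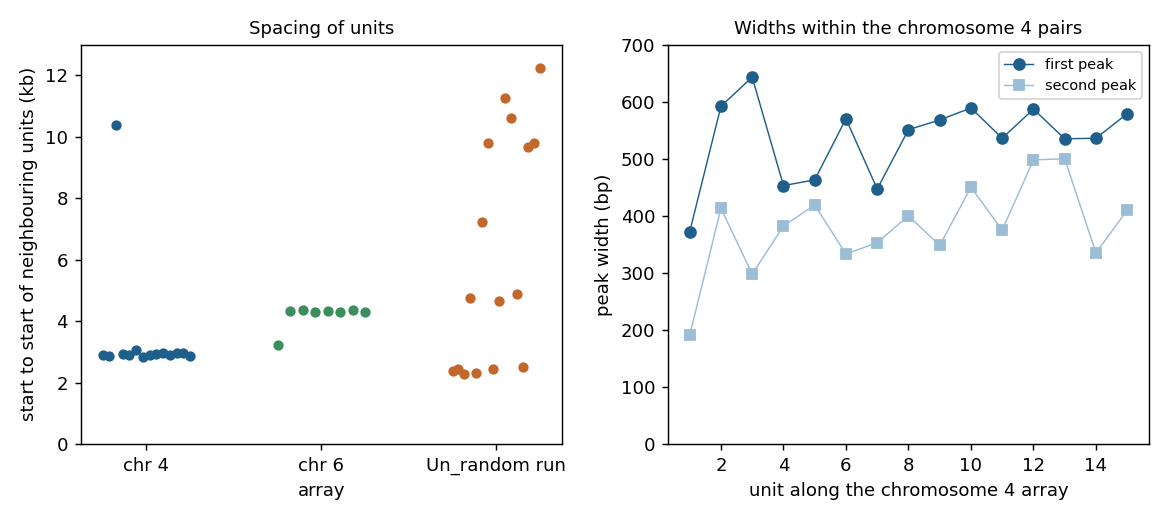
Left, distance in kb from the start of each unit (peaks linked at gaps of at most 1000 bp) to the next, in order along the locus, for chromosome 4, chromosome 6 and the run on Un_random. Right, widths in bp of the first and second peak in each of the 15 chromosome 4 units, where the first peak is the wider in each.

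Chromosome 6 held a second regular array, with a longer step and a less uniform unit. The window from 47580000 to 47660000 held 18 peaks between 47601643 and 47636329, which linked into 9 units, 5 of them with 2 peaks, 2 with 3 peaks and 2 with 1. From unit 2 to unit 9, starts followed each other at 4324 bp (median, SD 26.7, 7 spacings, range 4284 to 4353). Unit 1, a single peak of 350 bp, stood 3212 bp before unit 2, or 0.743 of a step. The best period of all 18 starts was 4281 bp from starts, 4286 bp from midpoints and 4346 bp from ends. Its resultant length was 0.845, which 1 of the 28 other runs reached or passed among periods of at least 1000 bp and 12 did among all periods. A close spacing was also met in the next peaks of the chromosome, beginning 53.3 kb after the locus and outside the window. In this run of 14 peaks from 47689668 to 47727247, 3 distances agreed within 10 bp at 4392 bp and 5 within 50 bp at 4387 bp. It is one of the 28 other runs and holds their highest counts at both tolerances.

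Peaks of different chromosome 6 units recurred at the same places inside the unit. Units 2 and 6 each had 3 peaks, of 285, 176 and 456 bp and of 268, 177 and 367 bp. Their middle peaks began 464 and 457 bp after the first and their last peaks 763 and 788 bp after it. Units 3, 8 and 9 had 2 peaks each, of 646 and 293 bp, 638 and 360 bp, and 647 and 441 bp. The later peak began 768, 778 and 773 bp after the first in these units, which is where the last peak lay in the units of 3. Unit 4 had its later peak, of 180 bp, at 447 bp. Unit 5, with peaks of 280 and 245 bp that began 940 bp apart, had no counterpart. Unit 7 was 1 peak of 427 bp. The widest peak, 647 bp, ran from 47635116 to 47635762 and the narrowest, 176 bp, from 47605319 to 47605494, with 299 bp between its start and the next. The commonest distance within 10 bp was 8661.5 bp, shared by 4 of 153 pairs, and 9 pairs agreed within 50 bp at 8653 bp, which spans 2 units.

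**Figure D4:**
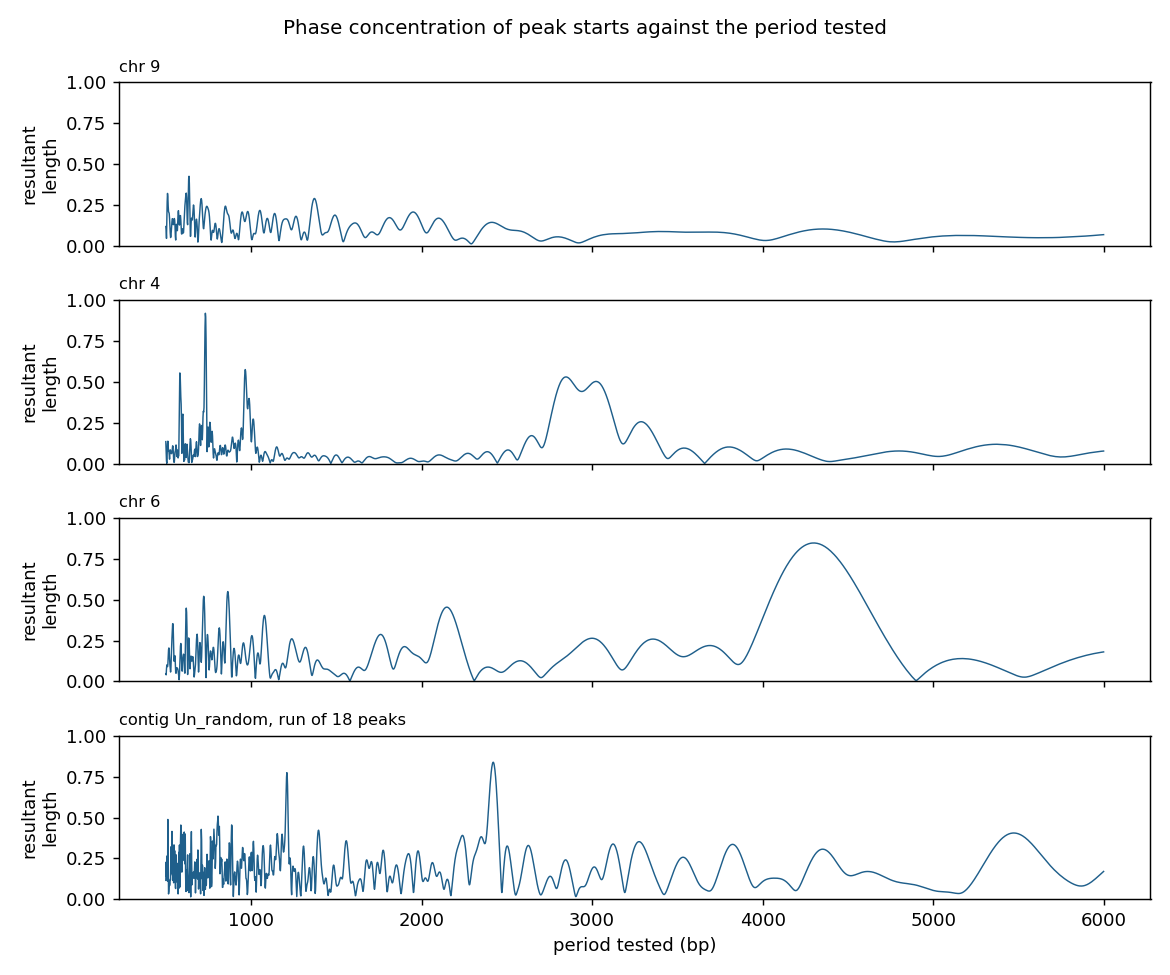
Resultant length of the peak starts (0 to 1) against the period tested in bp for 4 loci. Chromosome 6 peaks near 4281 bp and the Un_random run near 2421 bp, chromosome 4 has its maximum near 732 bp and a lower one near 2840 bp, and chromosome 9 stays below 0.5 throughout.

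Chromosome 12 showed another kind of order. The window from 55790000 to 55860000 held 19 peaks from 55796548 to 55840274, of very unequal width. Widths ran from 157 bp, shared by 4 peaks, to 1891 bp, for a median of 226 bp (95% interval from order statistics 175 to 1305), and 6 peaks passed 1 kb. That median is not firm, since it became 565 bp without the 4 narrowest peaks and 1567 bp with peaks merged within 500 bp. The best period, 292.8 bp, had a resultant length of 0.624, below the 28 other runs, and moved to 167.3 bp from midpoints and 132.8 bp from ends. As on chromosome 9, that order partly follows the number of peaks, since the other runs held 8 to 16. At most 2 of 171 distances agreed within 10 bp, at 1738.5 bp, and 3 agreed within 50 bp at 1742 bp. These came from 4 peaks, from 55814438, 55816173, 55817937 and 55819679, whose starts were 1735, 1764 and 1742 bp apart. Only the last 2 of these spacings held another peak. In 5 of the 28 other runs, 3 or more distances agreed within 50 bp. The closest starts, at 293 bp, ended at the peak from 55816466.

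The 6 wide peaks of chromosome 12 were placed as mirror images, a pattern noticed in these data and described without a test. Their widths in order were 1891, 1650, 1188, 1305, 1872 and 1885 bp. Their midpoints were 3709.5, 5010, 10336.5, 4918.5 and 3804.5 bp apart, so that the spacings read nearly the same from either end. Counted along the locus, peaks 1 and 6, 2 and 5, and 3 and 4 had their common centres within 47.5 bp of each other. A narrow peak of 157 bp from 55813162 and one of 226 bp from 55837528 shared that centre as well, which made 4 mirrored pairs within 100 bp (counted on the sum of the midpoints). The 28 other runs had 1 to 3 such pairs with a median of 2. Regular arrays and larger sets give more of them by construction, as the 10 on chromosome 4, the 7 on chromosome 9 and the 5 on chromosome 6 show. Most narrow peaks of chromosome 12 had no mirrored partner.

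**Figure D5:**
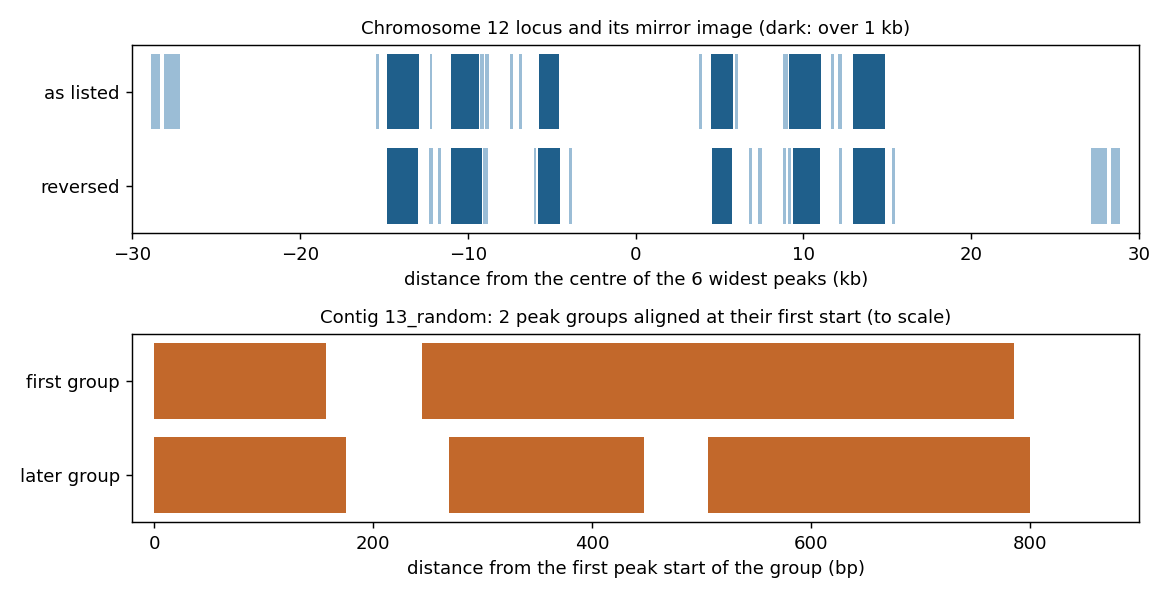
Top, peaks of the chromosome 12 locus as listed and in reverse order, against the distance in kb from the centre of the 6 peaks over 1 kb (dark), which overlap in both orders. Bottom, 2 peak groups of the contig 13_random, drawn to scale in bp from their first start, which span 786 and 800 bp.

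Both loci of chromosome 11 combined wide peaks with long gaps. The distal window, from 101480000 to 101530000, held 5 peaks. Those from 101488130, 101502423, 101506514 and 101518988 were 1456, 1535, 1365 and 1553 bp wide, and the last, from 101526599, was 451 bp. Their starts were 14293, 4091, 12474 and 7611 bp apart, with no distance shared within 10 bp. The nearest peaks outside were 237 bp wide at 19.4 kb before and 575 bp wide at 66.9 kb after.

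The proximal window, from 87230000 to 87290000, held 11 peaks with a median of 895 bp, of which 4 passed 1 kb. Widths fell into a narrow set of 5 peaks from 212 to 350 bp and a wide set of 6 from 895 to 1359 bp, with none between. The widest ran from 87275249 to 87276607 and the narrowest from 87261006 to 87261217, whose start was the closest to its neighbour, at 581 bp. Peaks from 87256172, 87261587 and 87267008, with widths of 1209, 1194 and 323 bp, stood 5415 and 5421 bp apart, the commonest spacing here. These were 2 of 55 distances between starts. At least as many agreed within 10 bp in 11 of the 28 other runs and within 50 bp in 23 of them. The best period, 118 bp, had a resultant length of 0.85 that 12 of the 28 other runs reached or passed, and it moved to 663.5 bp when ends were used.

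On the contigs, peaks were mostly single and narrow. Un_random held 32, Y_random 26, 1_random 9, 13_random and 17_random 7 each, 9_random 6, 4_random and 8_random 3 each, and X_random 2. Medians of width by contig ran from 225 bp on 17_random to 381 bp on 1_random. The widest contig peak, 1045 bp from 5495487 on Un_random, was followed after 52 bp by one of 670 bp, and the narrowest on that contig, 157 bp, began at 2404436. Over the span between first and last peak, the covered share was between 0.0144% on Y_random and 1.90% on 4_random for contigs with at least 3 peaks. Contig peaks that lie next to each other in the list need not be neighbours in the cell, since the order of the joined pieces is arbitrary.

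Un_random carried a run of 18 peaks from 2373238 to 2472799, linked at gaps of at most 20 kb, and most of its spacings lay near 1 step or whole multiples of it. The peaks were narrow, with a median of 189 bp (165 to 249) and a highest width of 341 bp, and covered 3.88% of the run. The best period was 2421 bp with a resultant length of 0.838, which 1 of the 28 other runs reached or passed among periods of at least 1000 bp and 13 did among all periods. Neighbouring units that were a single step apart had a median of 2413.5 bp (SD 84.4, 6 spacings, range 2293 to 2492). These 6 were taken for lying between 2000 and 3000 bp, so they fit the step by construction. Of the other 10 spacings, 8 lay within 10% of a step from a whole multiple of it, from 2 to 5 steps. Of all possible distances, 20% lie that close. The exceptions, at 4.66 and 4.40 steps, were the 2 spacings on either side of the unit from 2422809, whose other peak, from 2423749, began 940 bp later, the closest starts on the contig. Both spacings were counted from the first peak of that unit. From its other peak, the next unit began 9688 bp later, beside a spacing of 9682 bp elsewhere in the run that came to 4.01 steps. The commonest spacing within 10 bp, 2296 bp, came from 2 of the 496 pairs of starts on the contig. Outside this run, the 14 peaks of Un_random lay apart except for the pair at 5495487.

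On 13_random, a group of peaks was found again at a fixed distance. The first group had peaks of 157 bp from 31425 and 541 bp from 31670. A later group began at 225278, 225547 and 225784, with widths of 175, 179 and 294 bp, and its last 2 starts, at 237 bp, were the closest on the contig. The commonest spacing within 10 bp, 241 bp, came from 2 of the 21 pairs of starts. The first starts were 193853 bp apart and the next 193877 bp. Single peaks of 369 bp each began at 132124 and 326031, 193907 bp apart. All 7 peaks of the contig belonged to these groups, and the groups extended over 786 and 800 bp, so that the wide peak of the first group lay where the later group had a pair.

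Shorter matches were seen on other contigs. On 17_random, peaks of 418 bp from 28459 and 225 bp from 28980 had counterparts of 157 and 171 bp from 451125 and 451681, at distances of 422666 and 422701 bp. The starts at 28459 and 28980 were the closest on this contig, at 521 bp, and no distance was shared within 10 bp. The narrowest width, 157 bp, was also that of a peak from 301396 there. On Y_random, peaks of 475 and 391 bp from 2332538 and 2337813 were 5275 bp apart, and peaks of 438 and 226 bp from 34295218 and 34300470 were 5252 bp apart. Its widest peak, 785 bp, began at 34301596 and its narrowest, 157 bp, at 53573857, and the closest starts were 377 bp apart, with no distance shared within 10 bp. Another 3 peaks of Y_random, of 188, 199 and 194 bp, followed each other at 904519 and 905541 bp. These matches were picked after the distances were seen.

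The remaining contigs showed no repeated spacing within 10 bp, but they offered few distances between starts to compare. There were 36 on 1_random, 15 on 9_random and 3 each on 4_random and 8_random. X_random had 1, so that none could repeat there. The 9 peaks of 1_random ran from 212 bp (from 740969) to 876 bp (from 741241), and this same couple had the closest starts, at 272 bp. The best period of that contig, 293.5 bp, had a resultant length of 0.96 but moved to 509.9 bp from midpoints and 185.3 bp from ends. Only 1 of the 28 other runs reached or passed this length, but the comparison is uneven. The contig peaks span 1026268 bp and the other runs at most 55390 bp, so more periods were searched here, which makes a high value from 9 starts easier to reach. On 9_random, the widest peak of 609 bp from 54547 and the narrowest of 183 bp from 55382 were also the closest, at 835 bp. On 4_random, peaks of 237, 310 and 162 bp began at 107708, 110103 and 144842. On 8_random, peaks of 157, 444 and 320 bp began at 103589, 601279 and 772457, and on X_random peaks of 313 and 157 bp at 1782998 and 1784875.

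A regular spacing of peaks was therefore measured at only part of these places. Where none was found, the label of tandem repeats was not tested. A unit shorter than the peaks need not show as a step between starts, and the median width on chromosome 9 was 827.5 bp. A step shared by most neighbouring units was measured on chromosomes 4 and 6. In the run on Un_random, picked after values were seen, 8 of the 10 spacings not used to set the step were near whole multiples of it. No step shared by most peaks was found on chromosome 9, on chromosome 12 or at the proximal locus of chromosome 11, and the loci on chromosomes 17 and 2 and the distal one on chromosome 11 held too few peaks to measure one. The number of copies of each sequence in CCE cells was not tested, and with no value of the input analysed here, signal from extra copies and binding of Zfp217 cannot be told apart at any of them.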

How the data were processed

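Zfp217 chromatin immunoprecipitation and input libraries of CCE cells were sequenced, 1 of each. The authors deposited 1 peak list with 4 columns (chromosome, start, end, name), whose values are positions in bp. CASAVA 1.4, Bowtie2, MACS2 and the build mm9 are named, per the submitters' processing notes, with no roles or settings. Peak numbers in the names ran from 1 to 18737 with none missing. How duplicate reads were treated, which threshold defined a peak and whether the input was its control were not given in these sources.

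A peak belonged to a window when it overlapped it by at least 1 bp. Members and measures were chosen with earlier results of these data known, and the mirror order, the copies on contigs and the run on Un_random after values were seen. Every window and contig was named, with its widest and narrowest peak, closest starts and commonest spacing, or with every peak where there were fewer than 5. Periods were searched for sets of at least 8 peaks. The search was checked on simulated arrays without missing units, for periods of at least 1000 bp only. Simple fractions of the planted period counted as found there, so the check does not show that a step is told from its fractions. The periods reported carry no test. Medians have 95% intervals from order statistics, which treat peaks as independent. No sequence of mm9 was used here, and no gene was assigned. Values were computed in Python 3.11.15 with pandas 2.3.3, numpy 2.4.6 and scipy 1.17.1, and drawn with matplotlib 3.10.9.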

Additional observations from a re-analysis of the deposited data

How the results depend on the processing

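Of 200 alternative values, 138 stayed within 1.5 times the reported value (widths: within the 95% interval of the median, where there was one) and 62 moved. The number of members stayed at 221 for peaks entirely inside a window and for windows widened by 10 kb, and fell to 131 among the wider 50% of all peaks. The median number of peaks per window, 14.5, became 8 in the wider 50%, 6.5 with peaks merged within 500 bp and 5.5 within 1000 bp, by construction. Merging within 500 bp raised the median over windows of the median width from 687.5 to 1370 bp. Taking the whole window as denominator lowered the median covered share from 29.3% to 15.3%. Leaving out the narrowest peaks kept 18 of 18 values within these limits, but the median width on chromosome 12 went from 226 to 565 bp, inside its wide interval of 175 to 1305 bp. From ends, the period on chromosome 4 was 583.9 bp. The period on chromosome 4 went from 732.2 to 2840 bp when only periods from 1000 bp were searched, an alternative added after the data were examined. Its commonest spacing went from 2910 to 5839 bp, and that of chromosome 6 from 8662 to 3860 bp, when spacings had to agree within 5 bp, where few pairs are left. The period on chromosome 6 stayed between 4281 and 4346 bp. No replicate could be left out, since there is 1 library. No paired analysis was possible because the result comes from 1 list and no test. Without depth, a missing peak in an array cannot be told from too few reads.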
